A study of Mus musculus with 6 samples.

Results

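The microRNA genes Mir144, Mir451a, Mir451b, Mir486a and Mir486b were followed through 6 small RNA libraries of mouse bone marrow. The genes were matched to the counted features by chromosome, start and end in GENCODE M21 (GRCm38), which carries the last 2 as Mir486 and Mir3107, the names used from here on, and RefSeq synonyms linked the names. The deposited rows are named by position without a strand, so Mir451a and Mir451b, which lie on opposite strands of the same 72 bases, share 1 row, and their reads cannot be told apart without a strand setting. The 5 genes were therefore 4 of the 1823 features listed in at least 1 library. The series compares lineage-negative (Lin-) bone marrow cells, the fraction depleted of mature blood cells, of wildtype mice (WT, 3 libraries) with those of mice labelled Mat KO (KO, 3 libraries), whose title names the Dlk1-Gtl2 imprinting locus. The labels give no strain, age, sex or description of the deleted sequence, and they do not say whether the libraries of a genotype are from different mice, so each p-value rests on the spread between libraries, which may be technical.

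miR-144 and miR-451 are made from 1 primary transcript that is switched on by the transcription factor GATA1 as red cell precursors mature. miR-451 is known for an unusual route: its hairpin is too short for Dicer and is cut by the Argonaute protein Ago2 instead. miR-486 comes from an intron of Ank1, the gene of an ankyrin of the red cell membrane skeleton, and is abundant in both erythroid cells and striated muscle. Mature erythroid cells are among those that lineage depletion usually removes, while early erythroid progenitors stay in the Lin- fraction.

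On chromosome 11 (GRCm38) Mir144 covers 78073005 to 78073070 on the plus strand, and the Mir451 feature covers 78073170 to 78073241, 99 bases further on. Neither overlaps another annotated gene. The nearest genes are Flot2, 12570 bases before Mir144, and Eral1, 134 bases after the Mir451 feature. On chromosome 8 Mir486 covers 23142555 to 23142682 on the plus strand. Mir3107 covers 23142573 to 23142662 on the minus strand, so that all 90 bases of Mir3107 lie inside Mir486. Both lie in introns of Ank1 on the plus strand and of the antisense transcript Gm15816 on the minus strand.

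The mature sequences show how little the products of the chromosome 11 locus have in common, although their precursors share a locus and in part the same bases. They are RefSeq sequences on GRCm38.p6, written 5′ to 3′ with the seed, bases 2 to 8, in capitals.
miR-144-5p: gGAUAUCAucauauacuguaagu
miR-144-3p: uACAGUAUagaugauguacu
miR-451a: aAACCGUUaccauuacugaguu
miR-451b: uGGGAGCAgcaagagaaccgu
The 4 seeds all differ, and none of them occurs at bases 2 to 8 of another of the 1738 mature sequences in the RefSeq table. Over bases 2 to 7, miR-144-3p shares its seed with miR-101a-3p. Sequences for Mir486 and Mir3107 are not printed here.

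The precursor hairpins are shown because the reads were counted over them, here with the mature sequences in capitals.
Mir144: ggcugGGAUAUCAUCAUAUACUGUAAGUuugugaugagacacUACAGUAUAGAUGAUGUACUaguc
Mir451a: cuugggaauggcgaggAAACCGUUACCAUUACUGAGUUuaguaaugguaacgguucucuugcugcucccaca
Mir451b: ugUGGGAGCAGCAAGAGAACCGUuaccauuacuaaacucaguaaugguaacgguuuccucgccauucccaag
The Mir451b hairpin is the exact reverse complement of the Mir451a hairpin, and the mature miR-451a and miR-451b share 0 genomic bases. In the structure of lowest energy from RNAfold, the Mir451a hairpin had 30 base pairs in 72 nt and a terminal loop of 4 nt. Mature miR-451a took positions 17 to 38 and so held all 4 loop bases, at positions 35 to 38. The Mir144 hairpin had 27 base pairs in 66 nt and a loop of 6 nt at positions 31 to 36, outside both miR-144-5p (positions 6 to 28) and miR-144-3p (positions 43 to 62).

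The libraries held 45398303 to 53299322 counts each, and each level is stated as CPM, a count scaled to a library total of 1000000. The gel slice was cut at 170 to 370 bp for snoRNAs with adapters, so mature miRNAs were not the target, and the counts do not show whether a read came from a mature miRNA, a hairpin or a longer transcript. Features of GENCODE type miRNA with a symbol starting Mir took 0.162% to 0.375% of the counts of a library. Of the 479 such features listed, 148 passed the expression filter of the test (edgeR's default, minimum count 10), and all 4 member features were among them. Mir21a, a miRNA of many blood and stromal cells, was the highest of the 148 per length. KO replicate 2 stood apart before any comparison. Among muscle miRNAs, a list of 5 features partly added after the data were seen, it had 258 reads of Mir1a-1, 116 of Mir133a-2 and 19 of Mir206, and 396 over the list, while the other 5 libraries had 3 to 11 over the list. It was also low in long RNAs: relative to the mean of the 6 libraries, the median log2 CPM of the 55 longest tested features (196 to 1582 nt) was -0.77, while that of the 148 miRNA features was 0.66. In WT replicate 1 the same miRNA median was the lowest of the 6, at -0.65. KO replicate 3 was also low in the longest features, at -0.43. The miRNA share of counts was 0.374% in KO replicate 2 and 0.375% in WT replicate 2. Liver miRNA Mir122 had 20 and 23 reads in WT replicates 1 and 2 and at most 1 read elsewhere, and the neuronal miRNA Mir124a-3 had 1 read in all.

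The Mir451 feature was the most abundant of the 4 in every library, and its highest level was in KO replicate 2. The KO libraries held 143, 353 and 85 of its reads and the WT libraries 51, 69 and 144, listed here and below in the order of replicates 1, 2 and 3. KO replicate 2 lay far above the other 5 libraries, and KO replicates 1 and 3 lay within or just above the WT range, so the genotypes overlapped. Mean levels were 3.85 ± 2.63 CPM (KO) and 1.77 ± 0.96 CPM (WT; SD, n = 3 per genotype), and the exact two-sided permutation test gave p = 0.2, where 0.1 is the smallest p that 3 against 3 allows. The fitted log2 fold change, KO over WT, was 1.20 (SE 0.62, 95% interval -0.29 to 2.69), and its adjusted p over 624 features was 0.730 by the quasi-likelihood test of edgeR, so the feature was not called at the threshold of 0.05. Without KO replicate 2 the log2 fold change was 0.56 (adjusted p = 0.969 by edgeR). In bulk RNA, a change in the number of cells of a type and a change in RNA per cell cannot be told apart.

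Mir144 had the lowest CPM of the 4 in every library and stayed between 0.169 and 0.268 CPM in 5 of the 6 libraries. Its reads numbered 13, 39 and 8 in KO replicates, and 10, 8 and 12 in those of WT. KO replicate 2 alone was high, and both the highest and the lowest CPM values of all 6 libraries were in the KO group. Mean levels were 0.397 ± 0.312 CPM (KO) and 0.200 ± 0.032 CPM (WT; SD, n = 3 per genotype), with an exact permutation p of 0.4. The spread of the 3 WT counts was no larger than counting error alone gives (variance 0.251 times that of counting), while in the KO libraries it was 12.0 times. The log2 fold change was 1.06 (SE 0.60, 95% interval -0.36 to 2.49, adjusted p = 0.730 by edgeR), and it was 0.26 without KO replicate 2 (adjusted p = 0.969). The ratio of the mean CPM, KO over WT, was 1.98 with all libraries and 1.09 without KO replicate 2.

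**Figure D1:**
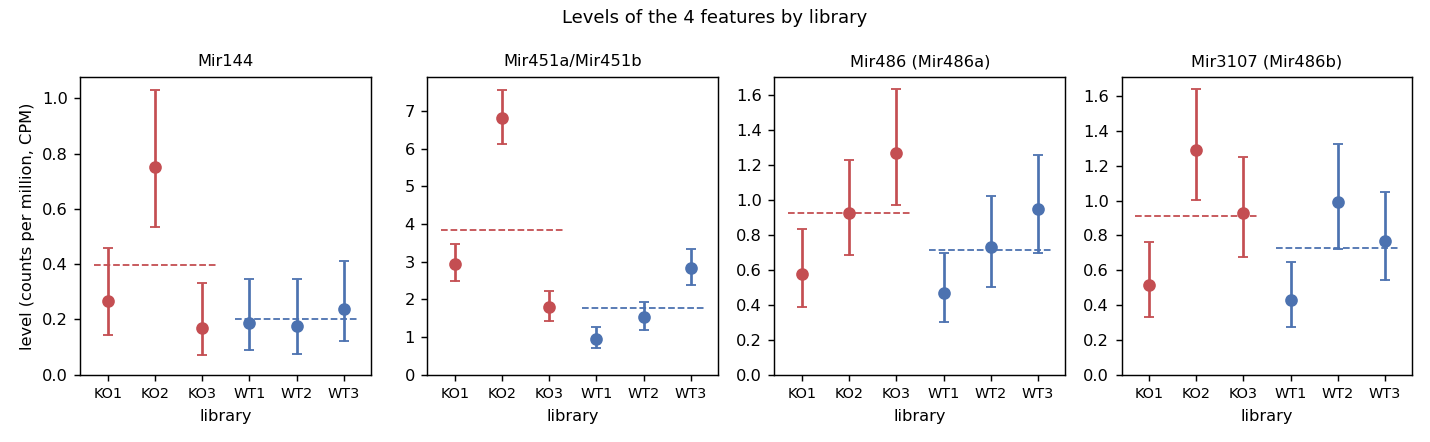
Level of each feature in CPM (vertical axis from 0, a scale of its own in each panel) in the 3 KO (red) and 3 WT (blue) libraries. Points are single libraries, bars are 95% exact Poisson intervals that cover counting error only, and dashed lines are group means. In the panels of Mir144 and Mir451a/Mir451b, KO2 lies above the other 5 libraries, and in the other panels the genotypes interleave.

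Mir486, the sense-strand precursor within Ank1, did not share the peak in KO replicate 2. Its reads numbered 28, 48 and 60 for KO, against 25, 33 and 48 for WT. KO replicate 3 was the highest and WT replicate 1 the lowest library, and the genotypes overlapped. Mean levels were 0.924 ± 0.345 CPM (KO) and 0.714 ± 0.238 CPM (WT; SD, n = 3 per genotype), with an exact permutation p of 0.5. The log2 fold change was 0.42 (SE 0.39, 95% interval -0.52 to 1.36, adjusted p = 0.759 by edgeR).

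Mir3107, the antisense partner inside Mir486, was counted 25, 67 and 44 times in the KO and 23, 45 and 39 times in the WT replicates. KO replicate 2 was the highest and WT replicate 1 the lowest, with the other libraries mixed between them. Mean levels were 0.913 ± 0.389 CPM (KO) and 0.730 ± 0.282 CPM (WT; SD, n = 3 per genotype), with an exact permutation p of 0.5. The log2 fold change was 0.39 (SE 0.46, 95% interval -0.70 to 1.47, adjusted p = 0.803 by edgeR), and it was 0.11 without KO replicate 2 (adjusted p = 0.977). Adjusted over the 4 exact tests by Benjamini-Hochberg, all 4 permutation p-values were 0.5. Summing Mir486 and Mir3107, whose reads cannot be told apart where they overlap if strand was not used, gave a log2 fold change of 0.45 (SE 0.41, adjusted p = 0.771 by edgeR).

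None of the 4 features was called, at a background of 0.16% called among the 624 features (1 feature), and at an unadjusted p under 0.05 edgeR had 0 of the 4 against 40 of 624 (6.41%). DESeq2 called none of them either, with an unadjusted p of 0.0418 for the Mir451 feature (adjusted p = 0.658) and of 0.0993 to 0.333 for the others. All 4 estimates lay above 0, with a median log2 fold change of 0.74. Of all 624 features 40.9% had estimates above 0 (median -0.08), and of the 148 miRNA features 81.1% did (median 0.37). Without KO replicate 2 all 4 estimates still lay above 0, with a median of 0.37, beside 62.9% of 151 miRNA features and a median of 0.16. The genotypes overlapped in CPM for all 4, and 15.2% of all tested features had groups that did not overlap. At that share, none among 4 features is not a contrast with the rest. The 95% intervals of all 4 log2 fold changes include 0, and they reach up to 2.69 for the Mir451 feature and 1.36 for Mir486.

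**Figure D2:**
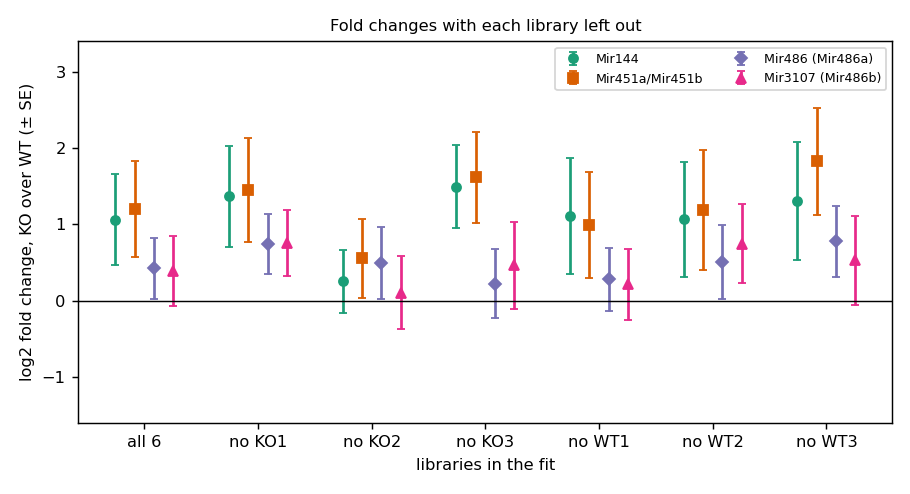
Fitted log2 fold change, KO over WT (vertical axis, points with SE bars), of the 4 features with all 6 libraries and with each library left out in turn (horizontal axis). All values lie above 0, and those of Mir144 and Mir451a/Mir451b drop to 0.26 and 0.56 without KO2.

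Compared per length, the Mir451 feature was the highest of the 4. In CPM per kilobase its level was 53.5 ± 36.5 (KO) and 24.6 ± 13.4 (WT; SD, n = 3 per genotype). Mir3107 followed with 10.1 ± 4.3 and 8.11 ± 3.13, then Mir486 with 7.22 ± 2.70 and 5.58 ± 1.86, and Mir144 with 6.01 ± 4.73 and 3.03 ± 0.48. The Mir451 feature was above each of the other 3 in 6 of 6 libraries, and Mir3107 was above Mir486 in 6 of 6. Before division by length, Mir3107 and Mir486 had near equal pooled reads, 136 and 136 (KO) and 107 and 106 (WT). Their order here thus rests on the annotated lengths of 90 and 128 bases. Mir144 was above Mir486 in 1 of 6. The SD ranges of the Mir451 feature and Mir3107 met in the WT libraries, those of Mir3107 and Mir486 overlapped in both genotypes, and those of Mir486 and Mir144 overlapped in the KO libraries only. Among the 148 tested miRNA features, ranked by mean level per length, the Mir451 feature was number 54, Mir3107 number 106, Mir486 number 114 and Mir144 number 126. The median of the 148 was 21.5 CPM per kilobase, so 3 of the 4 erythroid features lay below it. Mature erythroid cells are usually depleted from this fraction, and the part of that depletion in these levels was not tested.

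Inside the chromosome 11 locus, no change in the division of reads between the hairpins was detectable at this depth, while the total moved. Summed, the locus counts were 156, 392 and 93 for KO, against 61, 77 and 156 for WT. Mir144 held 8.33%, 9.95% and 8.60% of these reads for KO, against 16.4%, 10.4% and 7.69% for WT. The highest share, in WT replicate 1, has an exact binomial 95% interval of 8.15% to 28.1%, which holds the shares of the other libraries except that of WT replicate 3. Over the 6 libraries the shares varied by 0.878 times what counting error gives (chi-square per degree of freedom, 5 degrees). Pooled, the share was 9.36% of 641 KO reads (interval 7.22% to 11.9%) and 10.2% of 294 WT reads (interval 6.99% to 14.2%).

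The chromosome 8 pair was divided about evenly. Mir3107 held 47.2%, 58.3% and 42.3% of the summed reads for KO, against 47.9%, 57.7% and 44.8% for WT. The pooled share was 136 of 272 KO reads (exact binomial 95% interval 43.9% to 56.1%) and 107 of 213 WT reads (interval 43.3% to 57.1%). The shares varied by 1.73 times what counting error gives. Whether reads inside the overlap were assigned by strand, split or counted for 1 feature only is not stated in the sources at hand.

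**Figure D3:**
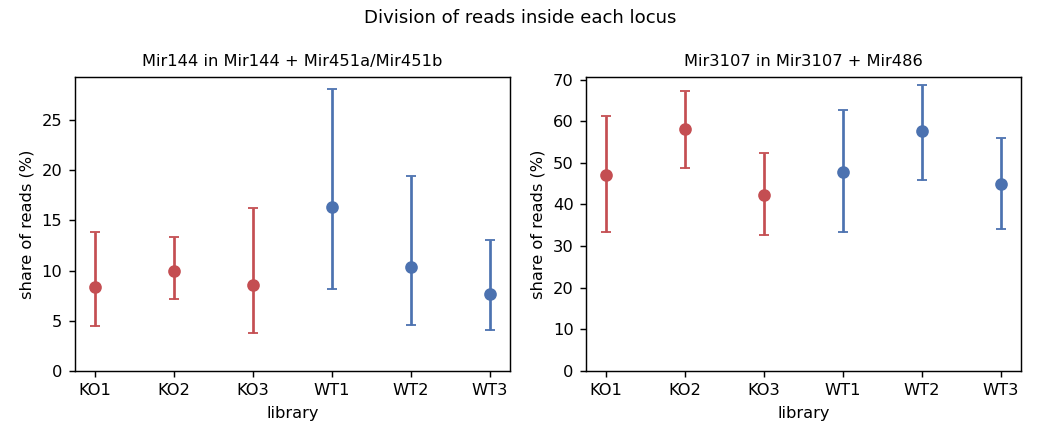
Share of reads in percent (vertical axis from 0) held by Mir144 in the sum with Mir451a/Mir451b (left) and by Mir3107 in the sum with Mir486 (right), in the KO (red) and WT (blue) libraries, with exact binomial 95% intervals. The left shares run from 7.69% to 16.4% and the right shares from 42.3% to 58.3%, with overlapping intervals between the genotypes.

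Mir3107 followed the other miRNAs across libraries more closely than the other 3 features did. In log2 CPM relative to the mean of the 6 libraries, KO replicate 2 was at 1.61 for the Mir451 feature and 1.47 for Mir144, at 0.78 for Mir3107 and at 0.30 for Mir486, against a median of 0.66 over the 148 miRNA features. Only 2 of the 148 had a larger value than the Mir451 feature in that library, and only 4 a larger one than Mir144, while 41 exceeded Mir3107 and 125 exceeded Mir486. In WT replicate 2 the miRNA median was at 0.34, and Mir3107 at 0.32, while Mir486 was at -0.12, Mir144 at -0.49 and the Mir451 feature at -0.62. Across the 6 libraries Pearson's r with the median of the other 144 miRNA features was 0.94 for Mir3107, 0.57 for Mir486, 0.66 for the Mir451 feature and 0.60 for Mir144, a description over libraries that share depth and makeup. Spearman's rho was 0.94, 0.60, 0.49 and 0.14 in the same order. The differences between these values were not tested.

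Among themselves, Mir144 and the Mir451 feature had the closest pattern over the 6 libraries (Pearson's r 0.90, Spearman's rho 0.77), followed by Mir486 and Mir3107 (0.76 and 0.71). Between the loci r was 0.21 to 0.63. These values rest on 6 libraries. Mir3107 lies inside Mir486, and without a known strand setting their reads may not be separate, so the r of that pair need not compare independent counts. Over the 5 libraries without KO replicate 2, a choice made after the data were seen, r was 0.78 for the chromosome 11 pair and 0.79 for the chromosome 8 pair, and -0.39 to 0.40 between the loci. The muscle miRNA reads were highest in that library too, and their part in its levels of the 4 features was not tested.

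**Figure D4:**
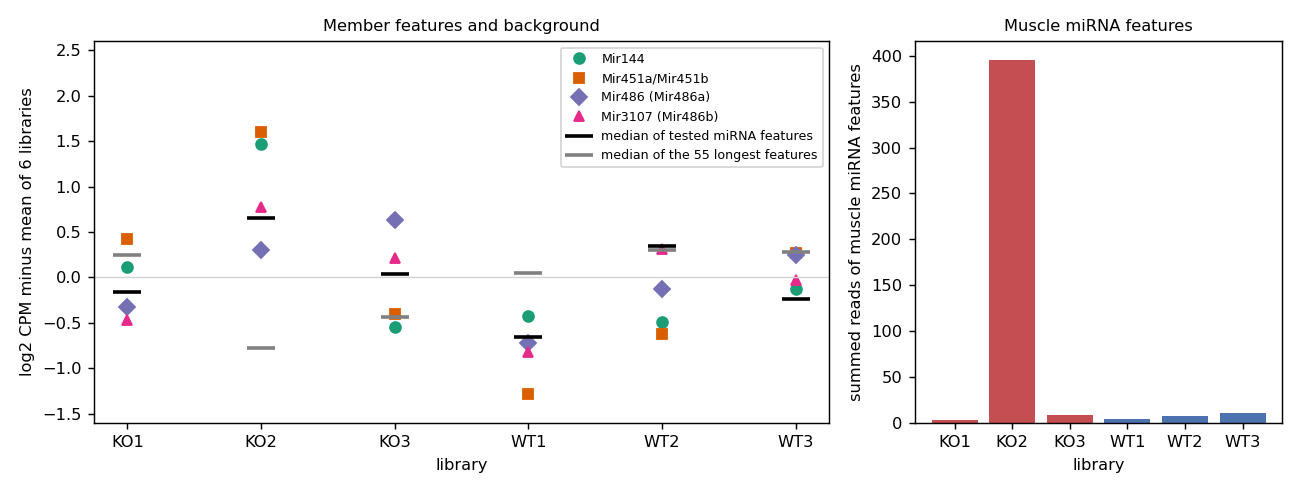
Left: log2 CPM of each feature minus its mean over the 6 libraries (vertical axis), with the medians of the 148 tested miRNA features (black dashes) and of the 55 longest tested features (gray dashes). Right: summed reads of 5 muscle miRNA features per library. KO2 is highest for Mir144 and Mir451a/Mir451b, at 1.47 and 1.61, has the lowest long-RNA median, at -0.77, and has 396 muscle reads.

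Scaling by the miRNA features in place of all counts left little difference between genotypes for the chromosome 8 pair. Per 1000000 miRNA counts, Mir486 was at 313 ± 96 (KO) and 308 ± 125 (WT), and Mir3107 was at 299 ± 54 and 296 ± 54 (SD, n = 3 per genotype), each with an exact permutation p of 1. The Mir451 feature was at 1264 ± 617 and 772 ± 485 (exact permutation p = 0.2), and Mir144 at 127 ± 72 and 90.9 ± 38.1 (exact permutation p = 0.4). The SD ranges of the genotypes overlapped for all 4 on this scale.

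Of 22 other features of miRNAs known from studies of erythropoiesis, 19 were tested, none was called by edgeR, and 17 had estimates above 0, with a median log2 fold change of 0.53. That compares with 81.1% above 0 and a median of 0.37 over all tested miRNA features. Without KO replicate 2 it was 15 of 19, with a median of 0.44, beside 62.9% of 151 miRNA features and a median of 0.16. The 3 with the highest mean level were Mir191, which is known to hold back enucleation of red cell precursors, with 17.8 CPM over the 6 libraries and a log2 fold change of 0.16 (SE 0.36), Mir30a with 15.9 CPM and 0.37 (SE 0.37), and Mir223, a myeloid miRNA that declines in erythroid cells, with 15.8 CPM and 0.51 (SE 0.35). Mir221 and Mir222, which act on the stem cell factor receptor Kit and fall as erythroid cells mature, had log2 fold changes of 0.50 (SE 0.38) and 0.09 (SE 0.33). The largest estimates of the list were 1.75 (SE 0.80) for Mir126a and 1.38 (SE 0.54) for Mir150, above those of all 4 member features. Mir15a and Mir27a were the pair with estimates below 0, at -0.33 (SE 0.30) and -0.13 (SE 0.36).

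**Figure D5:**
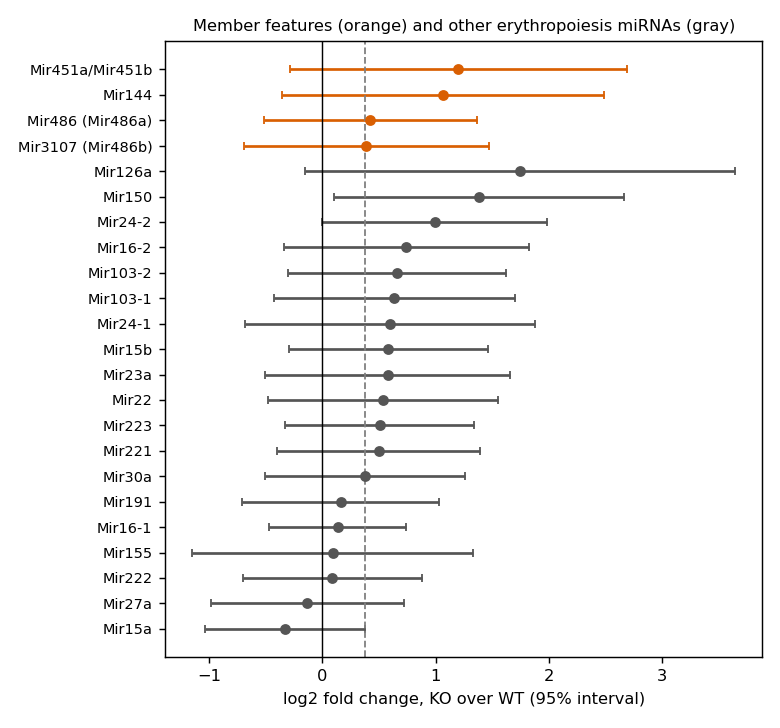
Log2 fold change, KO over WT, with 95% intervals (horizontal axis) for the 4 member features (orange) and 19 other tested erythropoiesis miRNA features (gray). The dashed line is the median of 148 tested miRNA features, at 0.37, and the intervals of all 4 member features include 0.

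Each marker list of other blood lineages had reads in all libraries, though not every listed feature did. The summed level of 4 myeloid miRNA features was 795 to 1272 CPM (KO) and 522 to 1453 CPM (WT). Most of it was from Mir21a, a miRNA of many blood and stromal cells. The 4 lymphoid features summed to 13.7 to 30.0 and 9.44 to 19.8 CPM, and 12 features of primitive haematopoietic cells, among them Mir10a and Mir126a, to 63.0 to 88.4 and 51.1 to 102.5 CPM. The 4 erythroid features summed to 4.16 to 9.78 CPM (KO) and 2.05 to 4.79 CPM (WT). From the lowest to the highest of the 6 libraries the sum ranged 4.78-fold for the erythroid features, 3.18-fold for the lymphoid, 2.79-fold for the myeloid and 2.01-fold for the primitive list. Sums weigh most on abundant features, such as Mir10a (mean 59.0 CPM) in the primitive list and Mir21a (968 CPM) in the myeloid list. Single features of other lists ranged further, as Mir126a did with 29 to 821 reads, so a wide range was not particular to the erythroid features. The ranges of the genotypes overlapped for each list, and the part of cell makeup in the levels of the 4 features was not tested.

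The features most like the sum of the 4, by Pearson's r of log2 CPM over the 6 libraries among 620 others, were the snoRNAs Gm22200 (r 0.98), Gm25894 (0.94) and Gm25802 (0.90) and the miRNAs Mir199b (0.91) and Mir20a (0.91). Spearman's rho was 0.94, 0.94 and 0.83 for these snoRNAs and lower, at 0.49 and 0.54, for these miRNAs, in the same order. As the highest r of 620 features over only 6 libraries, these values may be due to chance, which was not tested. The Mir451 feature was the largest part of the sum, with 353 of the 507 reads in KO replicate 2. Gm22200 was counted 215, 280 and 233 times in the KO and 223, 208 and 259 times in the WT replicates, a far narrower range than that of the Mir451 feature. Mir199b, a miRNA known from mesenchymal cells, had 10, 41 and 10 and 1, 13 and 8 reads, with its highest count also in KO replicate 2. Mir20a, of the miR-17-92 cluster, had 353, 871 and 517 and 310, 427 and 451 reads, again highest in KO replicate 2.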

How the data were processed

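Small RNA of Lin- bone marrow was sequenced in 3 KO and 3 WT libraries, grouped and numbered by their titles. Per the labels' protocols, 1 to 3 μg of Trizol-extracted RNA went into an NEB small RNA kit. The build GRCm38 and the tools Bowtie2 2.3.4.1 and Trimmomatic 0.38 are named in the submitters' processing notes. How features were annotated and counted, with strand or without, and what was done with reads of several matches is not stated there or in the labels. The authors deposited read counts per feature, without normalization on record, and unlisted features were set to 0.

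The counts were tested with edgeR 4.0.16 in R 4.3.3 (TMM, default filter with minimum count 10 and total 15, quasi-likelihood test, KO against WT, two-sided, Benjamini-Hochberg over 624 features, threshold 0.05), on code tested on simulated data. The SE, taken as the log2 fold change over the root of F, is approximate. DESeq2 1.42.0, exact permutation tests (Python 3.11.15), RNAfold 2.7.2 and log2 CPM with a prior count of 2 were also used. Total counts were 45398303 to 53299322, and the exact Poisson and binomial intervals (95%) cover counting error only, while those of fold changes come from the fit and include the spread between libraries. No replicate pair differed by as little as sampling noise (chi-square per degree of freedom 530 to 3308).

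Named were the members, the 5 tested features most like their sum, and the 3 highest members of the erythropoiesis list with any called. Mir221, Mir222, Mir15a, Mir27a, Mir126a, Mir150 and the muscle features were named after their values were seen. No other small RNA gene lay within 1000 bases of a member. The members and lists were chosen with earlier results of these data known.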

Additional observations from a re-analysis of the deposited data

How the results depend on the processing

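The log2 fold changes of the 4 features were above 0 in all 51 values from other scalings, filters, DESeq2, the replicate block, summed overlaps, a table without the 45S pre-rRNA (added after the data were seen) and fits without 1 library, and none was called (adjusted p 0.28 to 0.984; 5 had an unadjusted p under 0.05). With 1 library left out they ran from 0.26 to 1.497 for Mir144, 0.56 to 1.83 for the Mir451 feature, 0.23 to 0.78 for Mir486 and 0.11 to 0.76 for Mir3107. As log2 ratios of mean CPM, they ran from 0.13 to 1.35 for Mir144 (0.13 without KO replicate 2), 0.42 to 1.64 for the Mir451 feature, 0.07 to 0.63 for Mir486 and -0.0145 to 0.61 for Mir3107, whose -0.0145, without KO replicate 2, was the 1 reversed sign; the cause was not tested. Mir144, Mir486 and Mir3107 have no value where 3 libraries must each reach 50 counts. The 51 values are refits of the same 6 libraries. With 1 library left out in turn, 62.9% to 89.8% of all tested miRNA features also had estimates above 0.

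The count of features called by edgeR over the whole table was 1 in the main test, 13 without a filter (8 higher in the KO libraries, no member among them) and 0 to 1 without 1 library. It was 0 with the replicate block (46 at an unadjusted p under 0.05). The log2 fold changes with the block were 0.83 (SE 0.60) for Mir144 and 1.15 (SE 0.69) for the Mir451 feature. They were 0.42 (SE 0.25) for Mir486 and 0.37 (SE 0.25) for Mir3107. Whether the replicate numbers pair the libraries was not settled. Deviations of same-numbered libraries correlated at -0.13, 0.40 and -0.36, and not every library correlated best with its own number. With 3 libraries per genotype, these correlations cannot show that pairing is absent. In CPM, Mir486 and Mir3107 each ranked the replicates in the same order in both genotypes, while Mir144 and the Mir451 feature did not. Mir144 and the chromosome 8 features had 8 to 67 reads in each library. Their variance between replicates was 4.17 to 12.0 times that of counting, except for Mir144 in the WT libraries (0.251 times). For Mir144 in the KO libraries the 12.0 times came with 39 reads in KO replicate 2, beside 13 and 8 in KO replicates 1 and 3. Whether depth or the spread between libraries limits each feature more was not tested.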
